A study of Mus musculus with 8 samples.

Results

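The naive pluripotency factors described here are 10 genes, Klf2, Klf4, Klf5, Esrrb, Nr5a2, Tfcp2l1, Tbx3, Zfp42, Prdm14 and Tcl1, out of 55573 genes in the deposited tables. They were chosen by gene symbol, and each symbol matched 1 Ensembl identifier in the tables. The study is a bulk RNA-seq experiment on polyadenylated RNA of mouse embryonic stem cells carrying a 2C::GFP reporter, compared across chemical treatments that, by its title, are meant to bring the cells toward a totipotent-like state. There were 8 libraries in 4 groups of 2. The 2C::GFP+/SA cells were reporter cells given 2 µM SGC0946, an inhibitor of the histone H3 lysine 79 methyltransferase DOT1L, and 2 µM AS8351, an inhibitor of the histone demethylase KDM5B. Their serum replacement medium held IL6/sIL-6R at 10 ng/ml and is listed without LIF. The 2C::GFP+/SGC cells were reporter cells given 2 µM SGC0946 in serum replacement medium with 10 ng/ml LIF. The 2C::GFP+ cells were reporter cells without inhibitors, with LIF at 10 ng/ml, so 2C::GFP+/SA cells differ from them by both inhibitors and by the cytokine, which cannot be told apart. The mESC were wild-type and untreated, also with LIF at 10 ng/ml. The labels do not say whether reporter cells were sorted, nor which cell line or clone was used, nor whether replicates came from separate cultures, so p-values measure the spread between these libraries, which may be technical.

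Naive pluripotency is the state of mouse embryonic stem cells that resembles the preimplantation epiblast. It is held by a network of transcription factors that bind each other's regulatory regions and are kept on by LIF acting through STAT3, by Wnt signalling acting through relief of TCF7L1 repression, and by low ERK signalling. KLF2, KLF4 and KLF5 are zinc finger factors of the Krüppel-like family. ESRRB and NR5A2 are orphan nuclear receptors. TFCP2L1 and KLF4 respond to LIF, TFCP2L1 and ESRRB to Wnt signalling, and TBX3 is a T-box factor tied to signalling by AKT. PRDM14 represses DNA methyltransferase and FGF receptor genes in these cells, ZFP42 (REX1) is a zinc finger protein long used as a reporter of the naive state, and TCL1 is a cofactor that promotes AKT activity. The 2-cell-like state is a rare state of embryonic stem cell cultures in which genes of the 2-cell embryo, such as the Zscan4 cluster, are switched on.

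Total counts were between 96895300 and 145810000 in the replicate 1 libraries and between 12299900 and 19544900 in the replicate 2 libraries, so depth differed mostly by replicate number. Within each number the mESC library was the deepest and the 2C::GFP+/SA library the shallowest. The members had between 262 and 167085 counts in any library, and all 10 were among the 20608 genes tested. The columns for untreated 2C::GFP+ cells carry the name of the serum replacement and were assigned by elimination, so every comparison with 2C::GFP+ cells rests on that. The labels leave unsettled whether mESC were grown with inhibitors of MEK and GSK3 or in serum replacement medium with LIF, so medium and group cannot be told apart in any comparison with mESC. All 9 defining markers of mouse embryonic stem cells, among them Pou5f1, Sox2 and Nanog, were detected in all 8 libraries. In these bulk libraries, fewer cells expressing a gene and less RNA per cell cannot be told apart.

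Sequence before the start site is shown for 4 of the members. Tfcp2l1 and Klf4 fell in all 3 reporter groups relative to mESC, and Esrrb and Zfp42 fell in 2C::GFP+/SA cells relative to 2C::GFP+ cells. Tcl1 also fell in each of these comparisons and is not printed, so the 4 are a choice among the members that fell. Each run gives the 250 bases before a RefSeq start site of GRCm38.p6, 5′ to 3′ on the gene's strand, with matches to the searched motifs in capitals. The motifs, searched by letters on both strands, were the STAT motif TTCNNNGAA, the nuclear receptor motif AAGGTCA, the KLF motif in the form GGGCGTG or in the form GGGTGTG, the TCF motif CTTTGAT, the octamer ATTTGCAT and the T-box motif AGGTGTGA.
Tfcp2l1, chr1:118627695-118627944, plus strand: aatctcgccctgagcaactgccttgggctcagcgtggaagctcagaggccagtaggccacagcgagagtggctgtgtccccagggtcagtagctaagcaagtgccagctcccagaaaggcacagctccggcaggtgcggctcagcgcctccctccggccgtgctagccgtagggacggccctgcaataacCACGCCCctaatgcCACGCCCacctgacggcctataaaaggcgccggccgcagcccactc
Esrrb, chr12:86360867-86361116, plus strand: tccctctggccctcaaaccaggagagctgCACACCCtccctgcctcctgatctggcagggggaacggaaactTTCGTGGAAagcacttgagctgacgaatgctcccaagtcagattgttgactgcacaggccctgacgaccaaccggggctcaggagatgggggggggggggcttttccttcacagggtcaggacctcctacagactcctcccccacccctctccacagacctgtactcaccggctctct
Zfp42, chr8:43307010-43307259, minus strand: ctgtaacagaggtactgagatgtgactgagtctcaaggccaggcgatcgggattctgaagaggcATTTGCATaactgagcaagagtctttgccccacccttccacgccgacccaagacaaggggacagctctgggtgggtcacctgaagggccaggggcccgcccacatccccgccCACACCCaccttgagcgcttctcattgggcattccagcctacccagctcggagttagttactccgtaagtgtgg
Klf4, chr4:55532476-55532725, minus strand: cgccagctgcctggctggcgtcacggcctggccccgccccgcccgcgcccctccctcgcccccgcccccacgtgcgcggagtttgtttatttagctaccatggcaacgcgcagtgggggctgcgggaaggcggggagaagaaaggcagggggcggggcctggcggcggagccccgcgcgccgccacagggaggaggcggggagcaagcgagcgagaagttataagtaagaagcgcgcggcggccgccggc
The KLF matches in these runs lie on the opposite strand, so their capitals are the reverse complement of the letters searched. The Tfcp2l1 sequence held 2 KLF matches, 60 and 46 bases before the start site. The Esrrb sequence held a KLF match 221 bases before and a STAT match 178 bases before the start site. Of 2 Esrrb start sites, the one with more matches was printed. Its matches were thus selected for and cannot be weighed against the shares of all promoter windows. The Zfp42 sequence held an octamer 186 bases before and a KLF match 74 bases before the start site. The Klf4 sequence, with 74.0% G and C, held no match to these letters. No match overlapped another. Across all 32851 RefSeq promoter windows of 300 bases (250 before to 50 after the start), 15.5% held a KLF match, 8.30% a STAT match and 1.74% an octamer, and 4.72%, 3.73% and 1.28% held the nuclear receptor motif, the TCF motif and the T-box motif. Promoter entries were found for 7 members, not for Klf5, Tbx3 or Prdm14. A second Esrrb start site and the first Nr5a2 start site had no match in their 300-base windows. Nr5a2 had 1 KLF match, 157 bases before its second start site, and Klf2 and Tcl1 had no match in the 300-base window.

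The 10 genes lie on 6 chromosomes by the GENCODE M21 annotation of GRCm38. Prdm14 (13113457 to 13127163, minus strand), Tfcp2l1 (118627945 to 118685168, plus strand) and Nr5a2 (136842571 to 136960448, minus strand) are on chromosome 1. Klf4 (55527143 to 55532466, minus strand) is on chromosome 4 and Tbx3 (119670669 to 119684724, plus strand) on chromosome 5. Zfp42 (43295063 to 43306980, minus strand) and Klf2 (72319033 to 72321656, plus strand) are on chromosome 8. Esrrb (86361117 to 86521628, plus strand) and Tcl1 (105216750 to 105222793, minus strand) are on chromosome 12, and Klf5 (99298691 to 99315036, plus strand) is on chromosome 14. Zfp42 shared 13.4% of its exonic 31-base stretches with other genes, most with its pseudogene Zfp42-ps1, and its counts are less certain for that reason. The other 9 members shared at most 2.53%. Tbx3 overlaps the antisense gene Tbx3os1 over 115 exonic bases, and Tfcp2l1 overlaps the small RNA gene model Gm23497 over 130 bases. The strand setting of the counting is not given in the sources used here, so reads of Tbx3 and Tbx3os1 in that overlap cannot be told apart.

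The levels of the members were compared with each other on the deposited TPM scale, which is per length. Zfp42 and Klf2 had the highest 2 mean TPM levels in every group. Zfp42 had 659 ± 37.2 TPM in 2C::GFP+/SA cells, 991 ± 136 in 2C::GFP+/SGC cells, 1227 ± 260 in 2C::GFP+ cells and 1061 ± 0.169 in mESC (SD, n = 2 each). Klf2 had 594 ± 29.1 TPM in 2C::GFP+/SA cells, 556 ± 33.6 in 2C::GFP+/SGC cells, 539 ± 3.52 in 2C::GFP+ cells and 664 ± 59.5 in mESC. Nr5a2 and Prdm14 had the lowest 2 levels in mESC, 66.9 ± 2.701 and 50.4 ± 1.91 TPM, and these levels did not overlap. Ranks 3 to 5 in mESC were held by Esrrb, Tfcp2l1 and Klf4 with 464 ± 13.1, 456 ± 64.4 and 434 ± 115 TPM, and these levels overlapped between replicates. Tfcp2l1 had rank 4 of the 10 in mESC and rank 7 in the 3 reporter groups, where its mean was 50.2 TPM in 2C::GFP+/SA cells, 105 TPM in 2C::GFP+/SGC cells and 119 TPM in 2C::GFP+ cells.

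The summed TPM of the 10 members was 1933 and 2118 in 2C::GFP+/SA cells, 2630 and 2604 in 2C::GFP+/SGC cells, 3041 and 2864 in 2C::GFP+ cells and 3536 and 3759 in mESC. The groups did not overlap in this sum, and it was lowest in 2C::GFP+/SA cells. The share of the sum held by Tfcp2l1 averaged 2.47% in 2C::GFP+/SA cells, 4.004% in 2C::GFP+/SGC cells, 4.04% in 2C::GFP+ cells and 12.5% in mESC. The share held by Klf2 averaged 29.4% in 2C::GFP+/SA cells, 21.3% in 2C::GFP+/SGC cells, 18.3% in 2C::GFP+ cells and 18.3% in mESC.

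**Figure D1:**
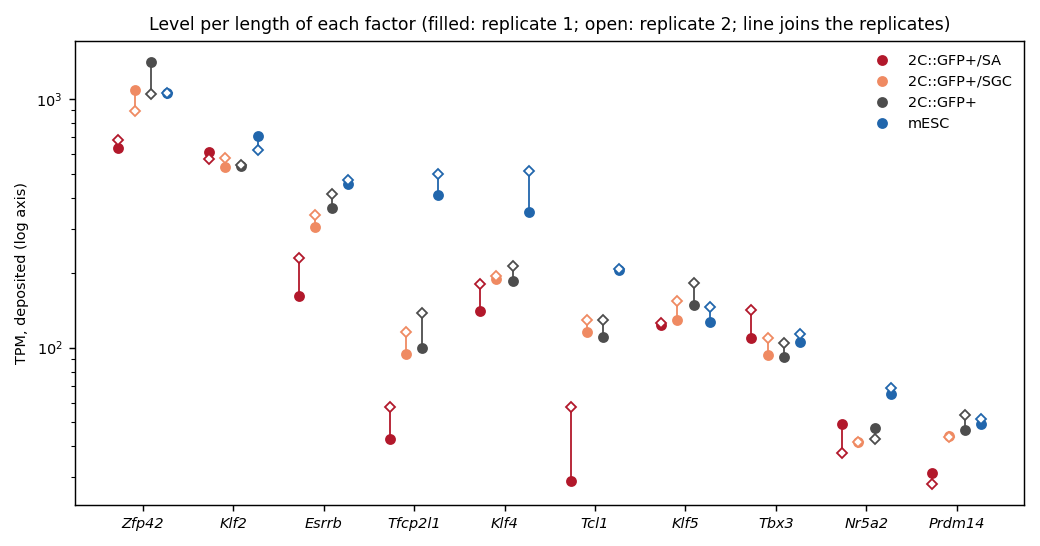
TPM as deposited (log axis) for each factor, with the 2 libraries of each group joined by a line and the factors ordered by their mean in mESC. Tfcp2l1 lies at 456 TPM on average in mESC and at 50.2, 105 and 119 TPM in the 2C::GFP+/SA, 2C::GFP+/SGC and 2C::GFP+ groups, while Klf2 stays between 539 and 664 TPM.

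Differences between groups were tested on the counts with edgeR's quasi-likelihood F test over all 20608 genes, fitted to all 8 libraries, and a gene was called at a Benjamini-Hochberg adjusted p under 0.05. Adjusted p-values given below are from that test. Levels are CPM, the counts of a gene relative to the library's total, scaled by TMM factors, and changes are log2 fold changes ± SE. The comparisons that share a group are not independent of each other.

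In 2C::GFP+ cells relative to mESC, 3 of the 10 members fell and none rose, against 9.12% of all genes tested called lower and 15.2% called higher. The members that fell were Tfcp2l1, Klf4 and Tcl1. In 2C::GFP+/SGC cells relative to mESC, 5 members fell and none rose, against 10.9% of all genes lower and 18.8% higher, with Esrrb and Nr5a2 added to those 3. Relative to mESC, 7 members fell and none rose in 2C::GFP+/SA cells, against 20.1% of all genes lower and 25% higher, with Zfp42 and Prdm14 added. Across these 3 comparisons the median log2 fold change of the members was -0.28, -0.51 and -0.66, where the median over all genes tested was 0.04, 0.06 and 0.03. The 3 comparisons share the mESC libraries.

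Among the reporter groups, 5 members fell and 1 rose in 2C::GFP+/SA cells relative to 2C::GFP+ cells, against 13.8% of all genes lower and 14.9% higher. Tcl1, Tfcp2l1, Esrrb, Zfp42 and Prdm14 fell and Tbx3 rose. The median log2 fold change was -0.50 over the members and 0.01 over all genes tested. In 2C::GFP+/SA cells relative to 2C::GFP+/SGC cells, Tcl1, Tfcp2l1 and Esrrb fell and Tbx3 rose, against 8.18% of all genes lower and 7.92% higher, and the medians were -0.24 and -0.02. These 2 groups differ by AS8351 and by the cytokine in the medium, and the 2 cannot be told apart.

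In 2C::GFP+/SGC cells relative to 2C::GFP+ cells no member was called, against 0% of all genes called higher and 0% called lower by edgeR. The log2 fold change was negative for 10 of 10 members, between -0.43 for Zfp42 and -0.06 for Tbx3, while it was positive for 53.2% of all genes tested. The median was -0.26 over the members and 0.03 over all genes tested. The 10 values come from the same libraries and are not independent, so their shared sign is a description only. At an unadjusted p under 0.05 there were 3 members (Esrrb, Klf5 and Zfp42) and 2037 of all genes. DESeq2 called 288 genes in the same comparison and no member. Missing the threshold does not show that the levels were equal.

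**Figure D2:**
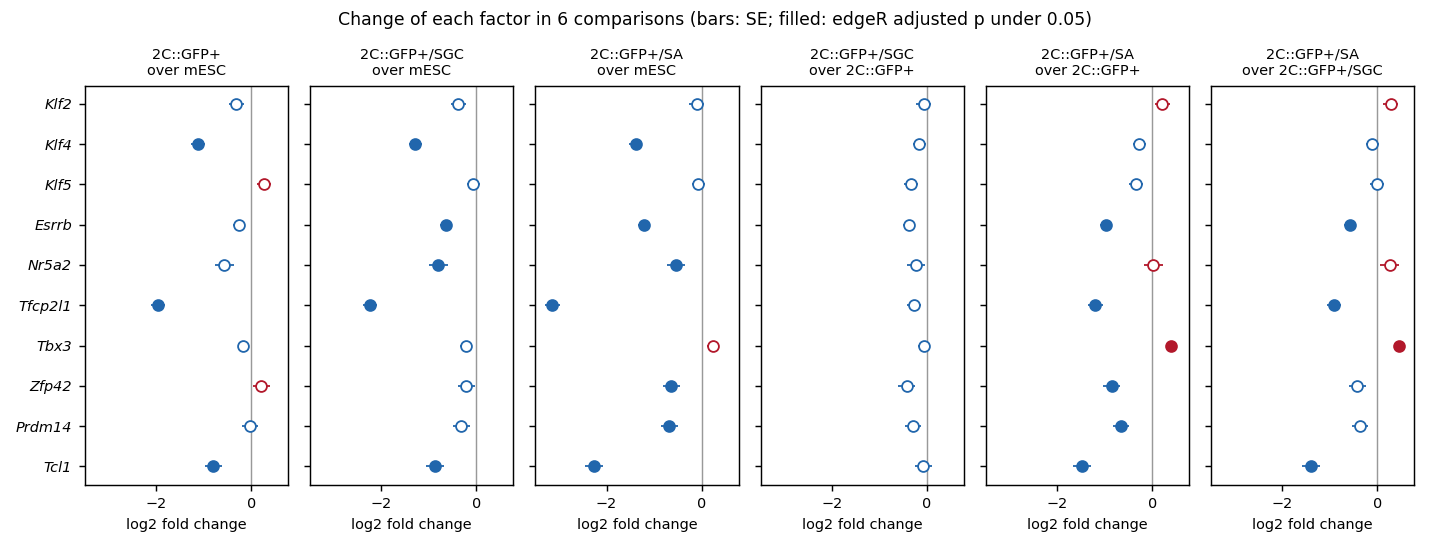
Log2 fold change of each factor (x axis, bars are the SE) in the 6 comparisons, filled where the edgeR adjusted p was under 0.05, red above 0 and blue below 0. Filled points number 3, 5 and 7 in the comparisons with mESC, 0 in 2C::GFP+/SGC over 2C::GFP+, 6 in 2C::GFP+/SA over 2C::GFP+ and 4 in 2C::GFP+/SA over 2C::GFP+/SGC, and Tbx3 holds the filled points above 0.

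Of the factors that respond to LIF and Wnt signalling, Tfcp2l1 differed most among the groups. It had 141 and 151 CPM in 2C::GFP+/SA cells, 250 and 299 CPM in 2C::GFP+/SGC cells, 296 and 371 CPM in 2C::GFP+ cells, and 1217 and 1365 CPM in mESC. Both mESC libraries were far above the other 6, both 2C::GFP+/SA libraries were below the other 6, and the 2C::GFP+/SGC and 2C::GFP+ libraries overlapped. The highest group mean was 8.84 times the lowest. In 2C::GFP+ cells relative to mESC the log2 fold change was -1.95 ± 0.15 (adjusted p = 1.05e-06), in 2C::GFP+/SGC cells -2.23 ± 0.15 (adjusted p = 3.1e-07) and in 2C::GFP+/SA cells -3.14 ± 0.16 (adjusted p = 9.54e-09). Tfcp2l1 was also lower in 2C::GFP+/SA cells than in 2C::GFP+ cells (-1.19 ± 0.15, adjusted p = 7.46e-05) and than in 2C::GFP+/SGC cells (-0.91 ± 0.15, adjusted p = 0.0011). The step between 2C::GFP+ cells and mESC and the step between 2C::GFP+/SA and 2C::GFP+ cells were thus each called on their own.

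Klf4, one of the original reprogramming factors and a target of STAT3, had 149 and 153 CPM in 2C::GFP+/SA cells, 163 and 163 CPM in 2C::GFP+/SGC cells, 178 and 185 CPM in 2C::GFP+ cells, and 338 and 453 CPM in mESC. The 6 reporter libraries were all below both mESC libraries and close to each other. Klf4 fell relative to mESC by 1.12 ± 0.14 on the log2 scale in 2C::GFP+ cells (adjusted p = 6.95e-05), by 1.28 ± 0.14 in 2C::GFP+/SGC cells (adjusted p = 1.88e-05) and by 1.39 ± 0.14 in 2C::GFP+/SA cells (adjusted p = 4.28e-06). Among the reporter groups Klf4 was not called, with a log2 fold change of -0.27 ± 0.14 in 2C::GFP+/SA cells relative to 2C::GFP+ cells (adjusted p = 0.176). Its lower level was thus called against mESC, not among reporter groups.

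Klf2, whose protein is degraded on ERK signalling in mouse embryonic stem cells, and Klf5, whose product shares targets with the other KLF factors, were called in none of the 6 comparisons. Klf2 had 396 and 294 CPM in 2C::GFP+/SA cells, 277 and 294 CPM in 2C::GFP+/SGC cells, 313 and 285 CPM in 2C::GFP+ cells, and 410 and 332 CPM in mESC. Klf5 had 224 and 181 CPM in 2C::GFP+/SA cells, 188 and 220 CPM in 2C::GFP+/SGC cells, 243 and 271 CPM in 2C::GFP+ cells, and 207 and 219 CPM in mESC. In both genes the 2C::GFP+/SA libraries overlapped those of mESC. For Klf2 the 2C::GFP+/SGC and 2C::GFP+ libraries were all below those of mESC, and for Klf5 the 2C::GFP+ libraries were above those of mESC. Klf2 was called lower than in mESC under 6 of 18 alternatives in 2C::GFP+/SGC cells and 3 of 18 in 2C::GFP+ cells. In edgeR fits to only the 4 libraries compared, the adjusted p was 0.0257 and 0.0373. The highest group mean was 1.30 times the lowest for Klf2 and 1.27 times for Klf5, the smallest 2 ratios among the members.

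The nuclear receptor gene Esrrb, a target of TCF7L1 repression, had 340 and 387 CPM in 2C::GFP+/SA cells, 519 and 567 CPM in 2C::GFP+/SGC cells, 698 and 717 CPM in 2C::GFP+ cells, and 864 and 825 CPM in mESC. The 4 groups did not overlap, and their order was 2C::GFP+/SA, 2C::GFP+/SGC, 2C::GFP+ and mESC from lowest to highest. Esrrb fell by 0.96 ± 0.13 on the log2 scale in 2C::GFP+/SA cells relative to 2C::GFP+ cells (adjusted p = 0.000112), by 0.58 ± 0.13 relative to 2C::GFP+/SGC cells (adjusted p = 0.00704) and by 1.22 ± 0.13 relative to mESC (adjusted p = 4.73e-06). The other 2 neighbouring steps in that order were not called: -0.38 ± 0.12 in 2C::GFP+/SGC cells relative to 2C::GFP+ cells (adjusted p = 0.335) and -0.26 ± 0.12 in 2C::GFP+ cells relative to mESC (adjusted p = 0.157). The call in 2C::GFP+/SA relative to 2C::GFP+/SGC cells ended without 2C::GFP+/SGC replicate 2 (adjusted p = 0.0769).

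Nr5a2, a nuclear receptor that can replace OCT4 in mouse reprogramming, had 101 and 61.4 CPM in 2C::GFP+/SA cells, 69.3 and 67.4 CPM in 2C::GFP+/SGC cells, 88.0 and 72.4 CPM in 2C::GFP+ cells, and 121 and 117 CPM in mESC. Both mESC libraries were above the other 6, and the 2C::GFP+/SA replicates stood on either side of all 4 libraries of the other reporter groups. Nr5a2 fell relative to mESC in 2C::GFP+/SGC cells (-0.80 ± 0.20, adjusted p = 0.00961) and in 2C::GFP+/SA cells (-0.54 ± 0.20, adjusted p = 0.0413), and was not called in 2C::GFP+ cells (-0.57 ± 0.20, adjusted p = 0.0548). That last change was called under 8 of 18 alternatives, such as DESeq2 (adjusted p = 0.0277) and the fit to only the 4 libraries compared (adjusted p = 0.00114). The call in 2C::GFP+/SA cells rests on replicate 2 of that group, without which the log2 fold change was -0.23 (adjusted p = 0.247), and it ended under 11 of 17 alternatives. The call in 2C::GFP+/SGC cells ended without any 1 of the 4 libraries compared (adjusted p 0.0511 to 0.0673).

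The T-box gene Tbx3 had 253 and 261 CPM in 2C::GFP+/SA cells, 175 and 199 CPM in 2C::GFP+/SGC cells, 192 and 197 CPM in 2C::GFP+ cells, and 220 and 216 CPM in mESC. The 2C::GFP+/SA libraries were above the other 6 in CPM. That did not hold on the deposited TPM scale. There 2C::GFP+/SA replicate 1 had 109.3 TPM, below 2C::GFP+/SGC replicate 2 with 109.5 and mESC replicate 2 with 113.1. Tbx3 was the 1 member that rose in 2C::GFP+/SA cells, by 0.40 ± 0.12 on the log2 scale relative to 2C::GFP+ cells (adjusted p = 0.0226) and by 0.46 ± 0.12 relative to 2C::GFP+/SGC cells (adjusted p = 0.0194). Relative to mESC the value was 0.24 ± 0.12 (adjusted p = 0.126). The rise over 2C::GFP+ cells was lost in limma on log2(TPM + 1) and log2(TPM + 0.1), with adjusted p of 0.165 and 0.166, with only the 4 libraries compared (adjusted p = 0.0568), and without either 2C::GFP+ library or without 2C::GFP+/SA replicate 2 (adjusted p 0.0508 to 0.116). The rise over 2C::GFP+/SGC cells was lost without either 2C::GFP+/SGC library (adjusted p 0.0501 and 0.179), with only the 4 libraries compared (adjusted p = 0.0521) and in limma on log2(TPM + 1) and log2(TPM + 0.1) (adjusted p 0.253 and 0.264).

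Zfp42 had 416 and 358 CPM in 2C::GFP+/SA cells, 576 and 462 CPM in 2C::GFP+/SGC cells, 838 and 560 CPM in 2C::GFP+ cells, and 627 and 576 CPM in mESC. Both 2C::GFP+/SA libraries were below the other 6, and the 2C::GFP+ replicates stood on either side of those of mESC. Zfp42 fell in 2C::GFP+/SA cells by 0.85 ± 0.18 on the log2 scale relative to 2C::GFP+ cells (adjusted p = 0.00429) and by 0.64 ± 0.18 relative to mESC (adjusted p = 0.0127). Without 2C::GFP+ replicate 1 the first value was -0.53 (adjusted p = 0.0627), and the second call ended without mESC replicate 1 (adjusted p = 0.0842) and without 2C::GFP+/SA replicate 2 (adjusted p = 0.0525).

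Prdm14, which had the lowest mean CPM of the members in mESC, had 28.1 and 20.2 CPM in 2C::GFP+/SA cells, 31.8 and 30.7 CPM in 2C::GFP+/SGC cells, 37.6 and 39.3 CPM in 2C::GFP+ cells, and 39.5 and 38.3 CPM in mESC. The libraries of 2C::GFP+ cells and mESC overlapped, and those of 2C::GFP+/SA cells were below the other 6. Prdm14 fell in 2C::GFP+/SA cells by 0.66 ± 0.17 on the log2 scale relative to 2C::GFP+ cells (adjusted p = 0.0121) and by 0.68 ± 0.17 relative to mESC (adjusted p = 0.00592). The first of these calls ended without either 2C::GFP+ library (adjusted p 0.0593 and 0.0734) and without 2C::GFP+/SA replicate 2 (adjusted p = 0.0851).

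Tcl1, the AKT cofactor gene, had 18.7 and 29.6 CPM in 2C::GFP+/SA cells, 60.2 and 65.1 CPM in 2C::GFP+/SGC cells, 64.0 and 67.9 CPM in 2C::GFP+ cells, and 119 and 110 CPM in mESC. The values formed 3 levels that did not overlap: 2C::GFP+/SA lowest, the other 2 reporter groups together in the middle, and mESC highest. Tcl1 fell by 1.47 ± 0.19 on the log2 scale in 2C::GFP+/SA cells relative to 2C::GFP+ cells (adjusted p = 9.63e-05) and by 2.27 ± 0.19 relative to mESC (adjusted p = 8.06e-07). In 2C::GFP+ cells relative to mESC it fell by 0.80 ± 0.18 (adjusted p = 0.00533), a call that ended without 2C::GFP+ replicate 1 (adjusted p = 0.0595) and in limma on log2(TPM + 1) (adjusted p = 0.0876). In 2C::GFP+/SGC relative to 2C::GFP+ cells the value was -0.07 ± 0.18 (adjusted p = 0.922).

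**Figure D3:**
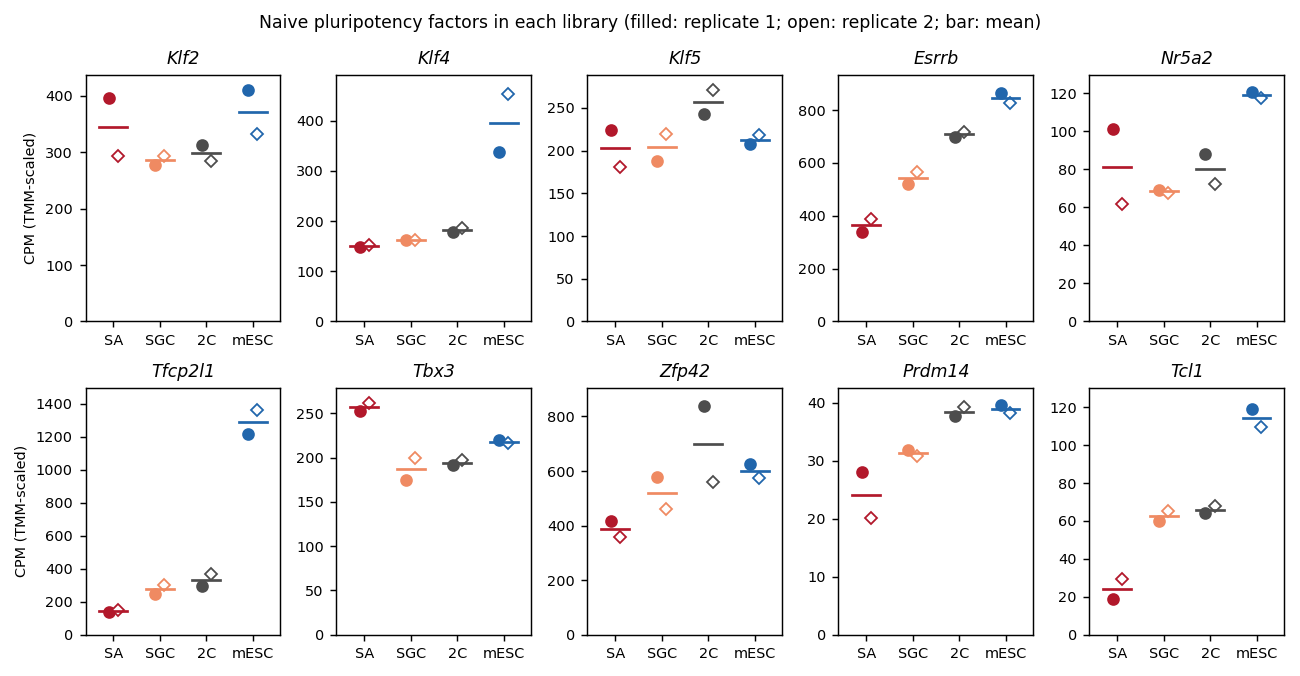
CPM (TMM-scaled, axes from 0) of each factor in the 8 libraries, with SA, SGC and 2C standing for 2C::GFP+/SA, 2C::GFP+/SGC and 2C::GFP+, replicate 1 filled, replicate 2 open and the bar at the group mean. Tfcp2l1 lies at 1217 and 1365 CPM in mESC and at most at 371 CPM elsewhere, and the 2 Tbx3 values of the SA group, 253 and 261 CPM, stand above the rest.

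Depth differed by replicate number, so each ratio was also taken within the deep and within the shallow libraries. All 25 called changes of members kept their direction in both. The groups compared did not overlap in any called change, so that agreement was fixed in advance and is no check on depth. Only the sizes of the ratios add information. For Tcl1 in 2C::GFP+/SA relative to 2C::GFP+ cells the log2 ratio was -1.78 in the deep and -1.20 in the shallow libraries. For Prdm14 the same ratio was -0.42 in the deep and -0.96 in the shallow libraries, and for Zfp42 -1.01 and -0.65. For Tfcp2l1 and Esrrb it was -1.07 and -1.04 in the deep libraries, with -1.30 and -0.89 in the shallow ones.

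The members' profiles over the 8 libraries, each a log2 CPM profile centred on its own mean, were compared by their root mean square difference. The closest pairs were Klf2 with Tbx3 (0.193) and Prdm14 with Zfp42 (0.201), and the farthest was Tbx3 with Tfcp2l1 (1.21). Tfcp2l1 and Tcl1, the 2 members with the widest range between groups, differed by 0.550. Other genes were searched if they had a mean of at least 1 CPM, with unnamed genes and predicted models (named Gm or ending in Rik) left out. Among these 12721 genes, those most like Tfcp2l1 were Zadh2 (0.162) and Eef2k (0.177). The most like Tcl1 were Klf13 (0.119) and Tmem51 (0.145), the most like Klf4 were Lpcat3 (0.0833) and Tiam1 (0.109), and the most like Esrrb were Srek1ip1 (0.0678) and Cdc42se1 (0.0756). For the members called with smaller changes, the most alike were Polr2i (0.0754) and Ifnar2 (0.0939) for Zfp42, Hsbp1 (0.0440) and Pdcd6ip (0.0499) for Tbx3, Tm2d2 (0.0939) and Hcfc1r1 (0.101) for Nr5a2, and Drap1 (0.0674) and Chmp2a (0.0699) for Prdm14. These distances describe 8 libraries that share their depth classes, and a flat profile lies close to many others.

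**Figure D4:**
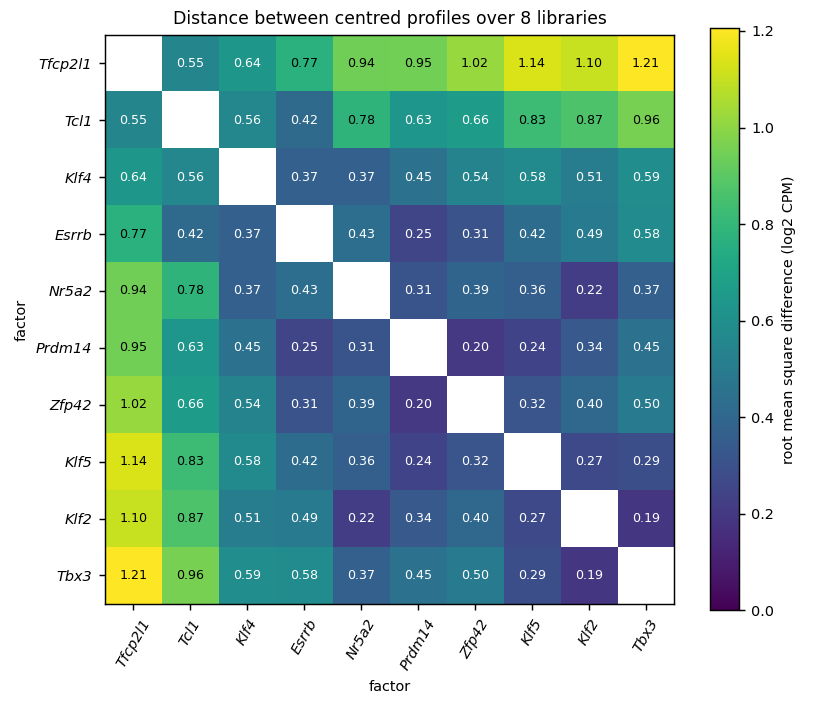
Root mean square difference (log2 CPM, colour and number) between the centred profiles of each pair of factors over 8 libraries. Tfcp2l1 and Tcl1 lie 0.55 apart, Tfcp2l1 and Tbx3 1.21 apart, and Klf2 and Tbx3 0.19 apart.

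The general pluripotency factors Nanog, Sox2 and Pou5f1 and the gene lists below were read from the same fit. Some genes stand in several lists, such as Sp5 in the naive network and Wnt lists, Myc in the STAT3 and ERK lists and Dnmt3a in the formative and PRDM14 lists. The counts of different lists are thus not independent. List counts are to be read against the shares of all genes tested. These were 15.2% higher and 9.12% lower in 2C::GFP+ relative to mESC, and 14.9% and 13.8% in 2C::GFP+/SA relative to 2C::GFP+. In 2C::GFP+/SA relative to mESC they were 25% and 20.1%. Nanog was called in none of the 6 comparisons, with 728 CPM in 2C::GFP+/SA cells, 639 CPM in 2C::GFP+/SGC cells, 686 CPM in 2C::GFP+ cells and 710 CPM in mESC on average. Relative to 2C::GFP+ cells, Sox2 fell in 2C::GFP+/SA cells by 0.87 ± 0.13 on the log2 scale (adjusted p = 0.000255) and Pou5f1, which encodes OCT4, by 0.42 ± 0.13 (adjusted p = 0.028). In 2C::GFP+ cells relative to mESC neither was called, at -0.13 ± 0.13 for Sox2 and 0.06 ± 0.13 for Pou5f1 (adjusted p 0.508 and 0.77). Of the 9 defining markers of embryonic stem cells, 2 rose and 5 fell in 2C::GFP+/SA relative to 2C::GFP+ cells. Sall4, a zinc finger partner of OCT4, rose by 0.92 ± 0.14 (adjusted p = 0.000335). Relative to mESC, 2 rose and 0 fell in 2C::GFP+ cells, Tdgf1 by 1.054 ± 0.158 and L1td1 by 0.92 ± 0.16 (adjusted p 0.000294 and 0.00108).

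The other 14 KLF genes moved in both directions. Of these, 4 rose and 5 fell in 2C::GFP+/SA relative to 2C::GFP+ cells. Klf9, a glucocorticoid and thyroid hormone responsive gene, rose by 1.32 ± 0.14 on the log2 scale (529 and 543 CPM, against 197 and 233 CPM in 2C::GFP+ cells, adjusted p = 2.43e-05). Klf15 fell by 1.40 ± 0.18 (adjusted p = 0.000104) and Klf13 by 1.22 ± 0.17 (adjusted p = 0.000156). Relative to mESC, 4 rose and 6 fell in 2C::GFP+ cells, with Klf15 at -1.39 ± 0.17 and Klf13 at -0.95 ± 0.16 among those that fell (adjusted p 6.01e-05 and 0.000798). The 2C::GFP+/SA cells had 5 higher and 5 lower than mESC. Klf17, a gene active in early embryos, had 1.53 and 1.85 CPM in 2C::GFP+/SA cells, against 0.131 and 0 CPM in mESC, and its changes rest on few counts.

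**Figure D5:**
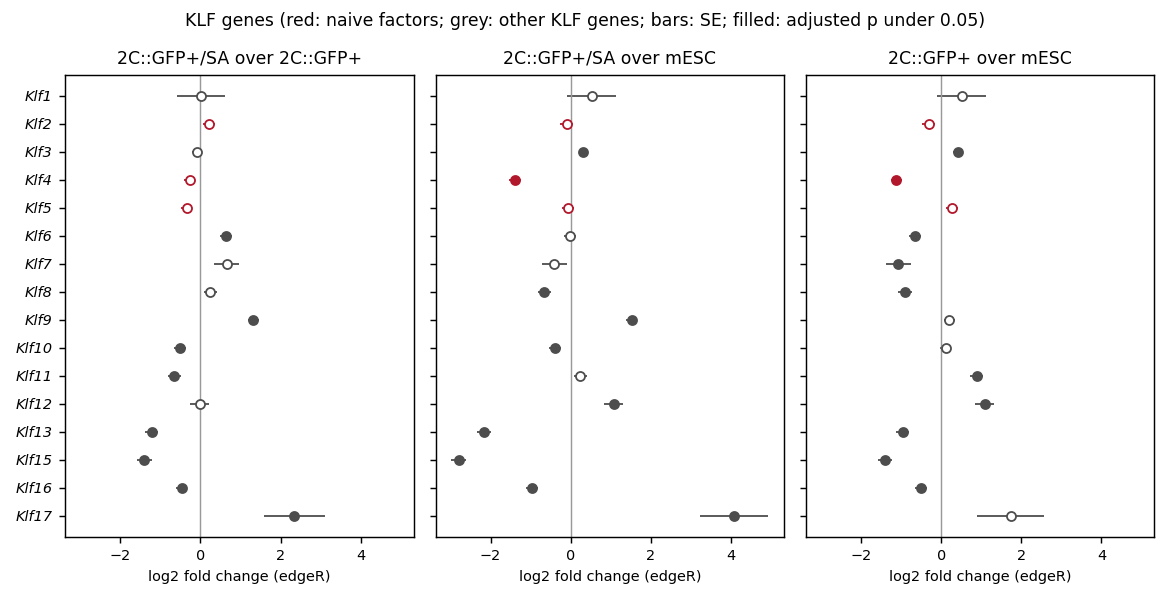
Log2 fold change (bars are the SE) of KLF genes in 3 comparisons, with Klf2, Klf4 and Klf5 in red, the others in grey and filled points at an edgeR adjusted p under 0.05, Klf14 left out because mESC had 2 counts in all. The 3 red points are open in 2C::GFP+/SA over 2C::GFP+, while Klf9 lies at 1.32 and Klf15 at -1.40.

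Of 20 relatives of the other members, 13 were tested, and in 2C::GFP+/SA relative to 2C::GFP+ cells 3 rose and 2 fell. Tfcp2, a close relative of Tfcp2l1, had 183 and 83.0 CPM in 2C::GFP+/SA cells, against 31.03 and 30.88 CPM in 2C::GFP+ cells, a log2 fold change of 2.11 ± 0.34 (adjusted p = 0.0036). It thus moved opposite to Tfcp2l1 in that comparison. Prdm1, a relative of Prdm14 and a germ cell and lineage repressor, fell by 1.68 ± 0.22 (4.93 and 6.78 CPM, against 18.7 and 18.1 CPM in 2C::GFP+ cells, adjusted p = 0.000128).

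The other 24 genes of the naive network did not move in 1 direction. Relative to mESC, 8 rose and 5 fell in 2C::GFP+ cells. Dppa2 and Dppa4, partner proteins that activate genes of the 2-cell embryo, rose by 2.96 ± 0.16 and 1.53 ± 0.14 on the log2 scale (adjusted p 3.58e-08 and 3.88e-06), and Sp5, a Wnt target, fell by 7.37 ± 0.27 (adjusted p = 9.24e-10). Relative to 2C::GFP+ cells, 5 rose and 10 fell in 2C::GFP+/SA cells. Among those that fell were Morc1, a germline silencing gene, by 1.30 ± 0.14, Manba, a lysosomal mannosidase gene, by 1.06 ± 0.13 and Fgf4, the autocrine activator of ERK signalling, by 0.89 ± 0.15 (adjusted p 3.05e-05, 7.44e-05 and 0.000615), and Dppa2 rose by 1.22 ± 0.15 (adjusted p = 6.56e-05).

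Pathways that feed into the members were counted in the same way. Of 16 canonical Wnt targets, 1 rose and 8 fell in 2C::GFP+ cells relative to mESC, with Axin2, the negative feedback scaffold, at 28.1 and 18.3 CPM against 135 and 150 CPM in mESC (-2.60 ± 0.19, adjusted p = 6.88e-07). In 2C::GFP+/SA relative to 2C::GFP+ cells 6 rose and 3 fell, and Axin2 rose by 1.63 ± 0.18 (adjusted p = 3.98e-05) and Sp5 by 1.54 ± 0.27 (adjusted p = 0.000811), while Bmp4 fell by 1.47 ± 0.20 (adjusted p = 0.000126). Sp5 stayed low, with a mean of 1.67 CPM in 2C::GFP+/SA cells and 0.564 CPM in 2C::GFP+ cells, against 91.1 CPM in mESC. Dkk1, a secreted Wnt inhibitor, was also called higher (adjusted p = 3.25e-05), with 604 and 151 counts in 2C::GFP+/SA cells, against 2 and 3 counts in 2C::GFP+ cells. The summed TPM of the 16 targets was nonetheless lower, 203 and 286 in 2C::GFP+/SA cells, against 378 and 334 in 2C::GFP+ cells. Tfcp2l1 and Esrrb fell in 2C::GFP+/SA relative to 2C::GFP+ cells, and a link between the Wnt targets and these members was not tested. Of 18 genes of the LIF, JAK and STAT3 pathway and its targets, 4 rose and 5 fell in 2C::GFP+ cells relative to mESC, and 1 rose and 8 fell in 2C::GFP+/SA relative to 2C::GFP+ cells. Il6st, the shared receptor subunit gp130, had 30.6 and 36.7 CPM in 2C::GFP+/SA cells, against 106 and 120 CPM in 2C::GFP+ cells (-1.75 ± 0.14, adjusted p = 3.93e-06). Lifr, the LIF receptor, fell by 1.14 ± 0.17 (adjusted p = 0.00029), and Il6ra, the IL6 receptor, rose by 3.06 ± 0.37 (adjusted p = 0.000637).

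Of 18 tested ERK feedback and target genes, 10 rose and 0 fell in 2C::GFP+ cells relative to mESC, with Dusp5, an ERK phosphatase gene, up by 3.37 ± 0.28 on the log2 scale, Myc by 2.13 ± 0.19 and Spry4, an ERK pathway inhibitor, by 2.31 ± 0.21 (adjusted p 1.75e-06, 3.32e-06 and 2.52e-05). Relative to 2C::GFP+ cells, 3 rose and 2 fell in 2C::GFP+/SA cells, near the shares of all genes tested, 14.9% higher and 13.8% lower. Of 17 formative and primed genes, 7 rose and 1 fell in 2C::GFP+ cells relative to mESC, and 6 rose and 1 fell in 2C::GFP+/SA relative to 2C::GFP+ cells. Pou3f1 (OCT6) had 41.8 and 68.5 CPM in 2C::GFP+/SA cells, against 9.76 and 6.59 CPM in 2C::GFP+ cells (2.72 ± 0.29, adjusted p = 3.28e-05). Nodal, a ligand of the TGF-beta family, rose by 1.46 ± 0.15 and Epha1 by 1.74 ± 0.29 (adjusted p 2.34e-05 and 0.000675), while Tead2 fell by 1.84 ± 0.13 (adjusted p = 2.23e-06). Of 14 genes that drive exit from the naive state, 2 rose and 0 fell in 2C::GFP+ cells relative to mESC, and 1 rose and 4 fell in 2C::GFP+/SA relative to 2C::GFP+ cells, with Zfp706 at -0.96 ± 0.12, Rbpj at -0.63 ± 0.13 and Tcf7l1, the repressor of Esrrb, at -1.13 ± 0.25 (adjusted p 7.18e-05, 0.00224 and 0.00882). Fnip1 rose by 0.65 ± 0.19 (adjusted p = 0.0236).

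The partners and targets of PRDM14 were set beside Prdm14 itself. Of 8 genes, 3 rose in 2C::GFP+ cells relative to mESC and none fell, where Prdm14 was at -0.02 ± 0.17. Dnmt3a and Dnmt3l, a DNA methyltransferase and its cofactor, rose by 2.38 ± 0.19 and 1.74 ± 0.17 on the log2 scale (adjusted p 4.04e-06 and 9.8e-06). In 2C::GFP+/SA relative to 2C::GFP+ cells, where Prdm14 fell, 1 rose and 3 fell. Fgfr2 rose by 1.52 ± 0.43 (adjusted p = 0.022), and Fgfr1 and the corepressor gene Cbfa2t2 fell by 0.79 ± 0.13 and 0.67 ± 0.12 (adjusted p 0.000723 and 0.000961). Dnmt3a and Dnmt3l were not called in that comparison. They had means of 258 and 369 CPM in 2C::GFP+/SA cells, against 296 and 364 CPM in 2C::GFP+ cells. The list pools partners with targets, so its counts do not describe the targets alone.

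Markers of other states and cell types were counted in the same comparison. Of 11 markers of the 2-cell-like state, 10 rose in 2C::GFP+/SA relative to 2C::GFP+ cells, and their summed TPM was 13128 and 6138 in 2C::GFP+/SA cells, 2684 and 2485 in 2C::GFP+/SGC cells, 1011 and 1246 in 2C::GFP+ cells and 93.4 and 87.7 in mESC. Of 17 primitive endoderm markers, 11 rose and 1 fell in that comparison, with summed TPM of 443 and 734 in 2C::GFP+/SA cells, against 308 and 258 in 2C::GFP+ cells. Of 9 tested fibroblast markers 4 rose. The summed TPM of all 16 listed was 170 and 141 in 2C::GFP+/SA cells, against 98.2 and 103 in 2C::GFP+ cells, where Postn, Lum, Twist2 and Fap had 0 counts. Of 14 tested trophectoderm markers 3 rose and 2 fell. The summed TPM of all 15 listed was 61.3 and 94.8 in 2C::GFP+/SA cells, against 85.2 and 80.3 in 2C::GFP+ cells, where Elf5 had 0 counts. These sums overlapped between the groups. The part of the other states and cell types in the changes of the members was not tested.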

How the data were processed

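Polyadenylated RNA of 8 libraries in 4 groups of 2 was sequenced. The authors deposited a table of read counts per gene and a table of TPM values, both by Ensembl identifier. The submitters' processing notes list featureCounts 2.0.0 and STAR 2.7.4a beside Trim Galore 0.6.5 and FastQC 0.11.9, with GRCm38 and mm10 as builds and Cell Ranger with no version. How TPM was computed is not given in the sources used here. Of the deposited counts between 1 and 10, 71.1% to 73.9% per library were even, so mates of a pair may have been counted separately, and counting error may be understated for that reason.

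Of 55573 identifiers, 55480 were matched to the GENCODE M21 annotation, and 20608 passed edgeR's filterByExpr. Counts were scaled by TMM (factors 0.942 to 1.06) and fitted with edgeR 4.0.16 (R 4.3.3), with 1 coefficient a group, robust quasi-likelihood F tests, 4 residual degrees of freedom and Benjamini-Hochberg adjustment over all genes. The common biological coefficient of variation was 20.6%. A count of 3, the floor, equals 0.0206 to 0.244 CPM. The steps were also run on simulated counts with the same spread for every gene. That run checked the code and does not bear on the calls of members. Promoter sequences came from RefSeq windows of GRCm38.p6. Alternatives used DESeq2 1.42.0, limma 3.58.1 on log2 of the deposited TPM plus 1 or 0.1, other filters and size factors, fewer libraries and a replicate block.

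Replicates of a group correlated across genes at 0.964 to 0.980 (Pearson's r). Their root mean square difference in log2 CPM over the genes tested was 0.861 in mESC to 0.979 in 2C::GFP+/SA cells. Members, gene lists and the naming rule were all set with earlier results of these data known. By that rule, genes shown for a list were drawn from its called genes of smallest adjusted p, up to 3 in the direction that more genes took and 1 in the opposite one (not every list is illustrated), and each called member with the 2 genes of most similar profile.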

Additional observations from a re-analysis of the deposited data

How the results depend on the processing

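Each of the 60 results (10 members in 6 comparisons) was recomputed under up to 18 alternatives, and no called change reversed its direction. Of 25 called results, 14 kept their call throughout and 11 lost it under at least 1 alternative, and of 35 results not called, 24 were never called. In 2C::GFP+ cells relative to mESC the count of called members was 3, against 5 in a fit to only the 4 libraries compared, 6 without both 2C::GFP+/SA libraries (added after seeing the data) and 2 to 6 on leaving out 1 library. The other counts on leaving out 1 library ranged from 4 to 6 in 2C::GFP+/SGC relative to mESC, 5 to 7 in 2C::GFP+/SA relative to mESC, 0 to 0 in 2C::GFP+/SGC relative to 2C::GFP+, 3 to 7 in 2C::GFP+/SA relative to 2C::GFP+ (lowest without 2C::GFP+ replicate 1) and 2 to 6 in 2C::GFP+/SA relative to 2C::GFP+/SGC (lowest without 2C::GFP+/SGC replicate 2). In 2C::GFP+/SGC relative to mESC, limma on log2(TPM + 1) and on log2(TPM + 0.1) each called 3 members, against 5 by edgeR, with Tcl1 and Esrrb not called. With the replicate block, Nr5a2 in 2C::GFP+ cells relative to mESC (adjusted p = 0.0100), Zfp42 in 2C::GFP+/SA relative to 2C::GFP+/SGC (0.0212) and Klf2 in 2C::GFP+/SGC relative to mESC (0.0339) were called as well, and no call was lost. The replicate numbers paired no samples by the labels, and deviations from group means correlated at 0.041 to 0.142 between groups. In a fit to only the 4 libraries compared, the calls of Tbx3 in 2C::GFP+/SA cells ended (adjusted p 0.0568 relative to 2C::GFP+ and 0.0521 relative to 2C::GFP+/SGC). The Tbx3 rise over mESC was called with RLE size factors (0.0388). Nr5a2 in 2C::GFP+/SA relative to mESC lost its call under 11 alternatives. The cause of these changes was not tested. Over all genes, 2C::GFP+/SGC relative to 2C::GFP+ gave 0 calls by edgeR, 288 by DESeq2, 499 with no filter, 468 with only the 4 libraries, 284 with the replicate block, 1 by limma on log2(TPM + 0.1), 170 and 275 without 2C::GFP+/SA replicate 1 and replicate 2, and 104 without both. Without 2C::GFP+ replicate 1, 2C::GFP+/SA relative to 2C::GFP+ gave 2878 calls, against 5910. Without 2C::GFP+/SGC replicate 1, 2C::GFP+/SA relative to 2C::GFP+/SGC gave 1235, and without replicate 2 1708, against 3319. Without mESC replicate 1, 2C::GFP+ relative to mESC gave 2837, and without 2C::GFP+ replicate 1 and replicate 2 it gave 3131 and 3231, against 5016. In 2C::GFP+/SGC relative to mESC there were 3377 without mESC replicate 1 and 4010 without 2C::GFP+/SGC replicate 2, against 6115. Limma on log2(TPM + 1) gave 2924 and 3940 calls in these 2 comparisons. Limma on log2(TPM + 1) moved the median of all genes by -0.11 in 2C::GFP+/SA relative to 2C::GFP+/SGC, and RLE size factors moved it by at most 0.09 in any comparison.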
